A study of Rattus norvegicus with 12 samples.

Results

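The miR-23/27/24 clusters are a pair of paralogous miRNA loci of the rat genome, and their 5 main products, rno-miR-23a-3p, rno-miR-23b-3p, rno-miR-27a-3p, rno-miR-27b-3p and rno-miR-24-3p (written without the prefix from here on), were followed across the hearts of Sham, MI and YQFM rats. The products were chosen by name, and all 5 were present among the 758 rat miRNAs of the array. Total miRNA was measured in the left ventricle near the infarction area of 12 male Wistar rats, with 1 Agilent single-dye array per rat and 4 rats in each group. Rats of the MI group had the left anterior descending coronary artery ligated as a model of chronic heart failure and received saline. Rats of the YQFM group had the same ligation and received Yiqifumai powder injection, a herbal medicine, at 5 mg/kg/d. Sham rats were operated on without a ligature and received saline. Treatment began 4 weeks after surgery, was given intraperitoneally and lasted 28 days, and the age of the rats is not given in the sources used here. The ligated rats were also chosen for an ejection fraction in a set range soon after surgery.

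In each cluster the precursors of miR-23, miR-27 and miR-24 lie close together and are transcribed as 1 primary RNA, which is processed into separate hairpins and then into mature miRNAs. A mature miRNA recognises its target mRNAs mainly through the seed, bases 2 to 8 from its 5′ end, so members that share a seed share most predicted targets. In heart and vessel, the miR-23 and miR-27 families are known for roles in endothelial sprouting and vessel growth, miR-23a for cardiomyocyte hypertrophy, and miR-24 for cardiomyocyte survival, fibrosis and endothelial apoptosis after infarction. The mature sequences, from RefSeq (build GRCr8), show how little separates the paralogs, with the seed in capitals.

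rno-miR-23a-3p: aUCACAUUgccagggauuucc
rno-miR-23b-3p: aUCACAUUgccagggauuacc
rno-miR-27a-3p: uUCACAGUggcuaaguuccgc
rno-miR-27b-3p: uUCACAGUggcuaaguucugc
rno-miR-24-3p: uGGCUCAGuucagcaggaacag

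The 5 miRNAs carry 3 seeds, UCACAUU in both miR-23 members, UCACAGU in both miR-27 members and GGCUCAG in miR-24. From miR-23a-3p to miR-23b-3p the only difference in 21 bases is U19A, and from miR-27a-3p to miR-27b-3p it is C19U, counted from the 5′ end, both outside the seed. On GRCr8 the Mir23a, Mir27a and Mir24-2 hairpins span chr19:40859455-40859843 on the minus strand, 389 bases between the genes Zswim4 and LOC102548759. The Mir23b, Mir27b and Mir24-1 hairpins span chr17:1818669-1819482 on the minus strand, 814 bases within the bounds of Aopep and Fancc, in a gene table that does not separate exons from introns. The hairpins of miR-24 are shown because both yield the same miR-24-3p (the second run of capitals) and so cannot be told apart on the array, while their 5′ arms (the first run of capitals) differ.

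Mir24-1: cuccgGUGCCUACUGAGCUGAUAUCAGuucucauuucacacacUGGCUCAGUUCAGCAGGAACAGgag
Mir24-2: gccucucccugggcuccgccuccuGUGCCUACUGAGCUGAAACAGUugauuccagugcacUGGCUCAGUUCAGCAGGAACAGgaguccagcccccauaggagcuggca

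Each member was read by 2 probes of 16 to 18 bases, which pair with the miRNA from base 4, 5 or 6 to base 21 or 22 and so cover part of the seed. The longest probe of each paralog is printed as given by the array annotation, with the base that differs between paralogs in capitals.

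miR-23a-3p probe: ggAaatccctggcaatgt
miR-23b-3p probe: ggTaatccctggcaatgt
miR-27a-3p probe: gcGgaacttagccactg
miR-27b-3p probe: gcAgaacttagccactgt

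Counted from the probe's 5′ end, the miR-23 probes of equal length differ by A3T and the miR-27 probes of 17 bases by G3A. How much of each signal came from the paralog was not tested. The 18-base miR-23a-3p probe is annotated on rn4 at chr19:25638793-25638809 and the 18-base miR-23b-3p probe at chr17:7351749-7351765, and the miR-24-3p probe of 18 bases at both chr17:7351018-7351035 and chr19:25638494-25638511.

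All 5 members were well above background on all 12 arrays, and the median coefficient of variation between spots of 1 probe was 1.35% to 3.48%. Over the arrays, 211 to 268 miRNAs were detected, and 263 miRNAs entered the tests. Values are log2 of the signal after each array was divided by its 75th percentile, and a level is compared between groups for 1 miRNA at a time, since brightness differs between probes. The arrays lay on 3 slides, with MI replicates 1 to 3 on the first, MI replicate 4 and YQFM replicate 1 on the second, and the 4 Sham arrays and YQFM replicates 2 to 4 on the third. No slide held both Sham and MI arrays, so a slide effect and the effect of MI can be separated only through the lone pair of arrays on the second slide. The source name of MI replicate 4 reads Sham and that of Sham replicate 4 reads YQFM, whereas their titles, descriptions and group entries give the groups used here. In pieces of tissue, fewer cells of a type and less RNA per cell cannot be told apart.

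MiR-23a-3p, a product of the chromosome 19 cluster, had log2 signals of 9.44, 9.07, 9.24 and 9.36 in Sham replicates 1 to 4. The MI arrays read 9.51, 9.30, 8.88 and 9.55, and the YQFM arrays 9.93, 9.24, 9.33 and 9.23. The 3 groups overlapped, with the highest value in YQFM replicate 1 and the lowest in MI replicate 3. The Sham mean was 9.28 ± 0.16, the MI mean 9.31 ± 0.31 and the YQFM mean 9.43 ± 0.33 (SD, n = 4).

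MiR-27a-3p, processed from the same primary RNA as miR-23a, read 9.01, 8.64, 8.90 and 8.88 in Sham. It read 9.13, 8.69, 8.17 and 9.10 in MI, and 9.27, 8.71, 8.85 and 8.71 in YQFM. Again YQFM replicate 1 was the highest and MI replicate 3 the lowest array, and the groups overlapped. Its means were 8.86 ± 0.16, 8.77 ± 0.45 and 8.89 ± 0.27 in Sham, MI and YQFM (SD, n = 4).

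MiR-24-3p, which both clusters encode, read 9.70, 9.45, 9.66 and 9.64 in Sham. It read 10.01, 9.80, 9.34 and 9.97 in MI, and 10.20, 9.50, 9.62 and 9.57 in YQFM. MI replicates 1, 2 and 4 lay above the 4 Sham arrays, and MI replicate 3 lay below them. The means were 9.61 ± 0.11, 9.78 ± 0.31 and 9.72 ± 0.32 in Sham, MI and YQFM (SD, n = 4).

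MiR-23b-3p, from the chromosome 17 cluster, read 9.62, 9.36, 9.52 and 9.53 in Sham. It read 10.08, 10.06, 9.43 and 9.79 in MI, and 10.34, 9.42, 9.54 and 9.50 in YQFM. MI replicates 1, 2 and 4 exceeded every Sham array, whereas MI replicate 3 and YQFM replicates 2 to 4 lay within the Sham range. The means were 9.51 ± 0.10, 9.84 ± 0.31 and 9.70 ± 0.43 in Sham, MI and YQFM (SD, n = 4).

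MiR-27b-3p, its neighbour on chromosome 17, read 8.64, 8.27, 8.45 and 8.50 in Sham. It read 8.84, 8.76, 8.01 and 8.92 in MI, and 9.17, 8.37, 8.57 and 8.39 in YQFM. MI replicates 1, 2 and 4 again lay above the Sham arrays and MI replicate 3 below them. The means were 8.47 ± 0.15, 8.63 ± 0.42 and 8.62 ± 0.37 in Sham, MI and YQFM (SD, n = 4).

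**Figure D1:**
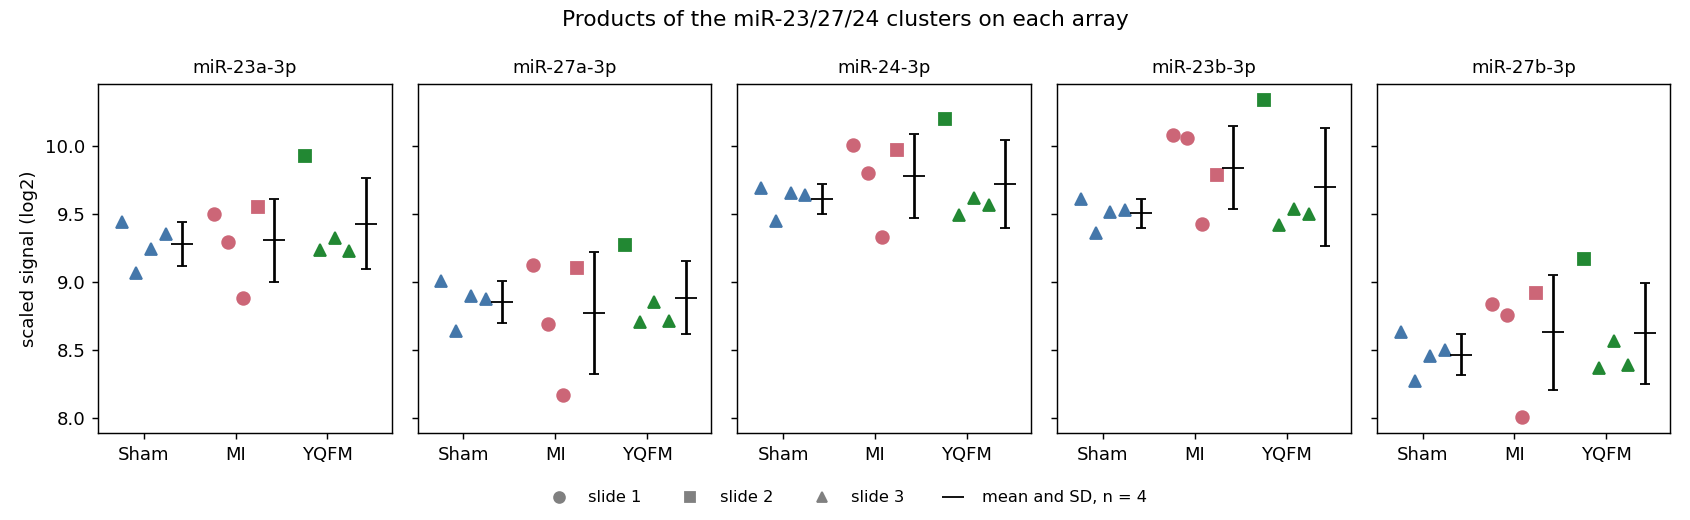
Scaled log2 signal of the 5 products (1 panel each) on the 12 arrays, by group, with marker shape for the slide and the mean and SD of each group beside the points. YQFM replicate 1 is the highest array in all 5 panels, MI replicate 3 is the lowest MI array in all 5, and the Sham arrays lie closest together.

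The 5 products shared much of their order over the arrays. YQFM replicate 1 was the highest of the 12 arrays for 5 of 5 members, and MI replicate 3 was the lowest for 4 of 5, the exception being miR-23b-3p, which was lowest in Sham replicate 2. Within the Sham group the order was also shared, with replicate 1 highest and replicate 2 lowest for 5 of 5 members. The median SD of the members was 0.15 in Sham, 0.31 in MI and 0.33 in YQFM, beside medians over the 263 tested miRNAs of 0.19, 0.27 and 0.22. In each ligated group 1 array lay farthest from the group mean over the members, YQFM replicate 1 by 0.51 and MI replicate 3 by -0.50 on average. In checks chosen after seeing the data, these arrays were left out, which lowers the SD by construction. The median SD of the members was then 0.063 in YQFM and 0.13 in MI (n = 3). Over all tested miRNAs it fell from 0.225 to 0.126 in YQFM and from 0.268 to 0.243 in MI. The spread thus fell beyond the members too, and less so in MI.

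The arrays at both ends also stood apart in some other measures, but not in all. MI replicate 3 had the fewest detected miRNAs (211) and the lowest 75th percentile before scaling, 0.787 of the mean over arrays. The summed signal of the 4 fibroblast-enriched miRNAs (miR-21-5p, miR-199a-3p, miR-199a-5p and miR-214-3p, all detected on all arrays) was 380 to 561 in Sham, 473 to 1104 in MI and 488 to 1543 in YQFM. It was highest in YQFM replicate 1 at 1543, followed by MI replicates 1, 2 and 4 at 1104, 932 and 789, and only Sham replicate 2 was lower than MI replicate 3 at 473. The same 4 arrays were the highest for miR-23b-3p, miR-24-3p and miR-27b-3p, but in the same order only for miR-23b-3p. For miR-23a-3p and miR-27a-3p, Sham replicate 1 was among the 4 highest and MI replicate 2 was not. The summed signal of the 6 cardiomyocyte-enriched miRNAs was 10051 to 13406 in Sham, 9414 to 11788 in MI and 9208 to 11483 in YQFM, with YQFM replicate 1 lowest of 12. Of those 6, miR-1-3p, miR-133a-3p, miR-133b-3p and miR-499-5p were detected on all arrays, miR-208a-3p on 1 Sham array and miR-208b-3p on none. The endothelial pair miR-126a-3p and miR-126a-5p summed to 563 to 733 in Sham, 707 to 941 in MI and 575 to 712 in YQFM, and YQFM replicate 1, at 711, was not an extreme of it. MI replicate 3 was not an extreme of the cardiomyocyte or endothelial sums. It was lowest of 12 for the smooth muscle pair miR-143-3p and miR-145-5p (381) and for 4 erythrocyte-enriched miRNAs (162). YQFM replicate 1 was no extreme of 12 for either, but was highest of its group for the smooth muscle pair, at 551. Of the 4 erythrocyte-enriched miRNAs, only miR-486 was detected on all arrays, miR-451-5p on 6, and miR-144-3p and miR-144-5p on none. For 6 leukocyte-enriched miRNAs, YQFM replicate 1 at 398 was highest of its group, and MI replicate 3 at 336 was no extreme. Of those 6, 4 were detected on all arrays, and miR-142-3p and miR-142-5p on none. The part that these differences play in the members' levels was not tested.

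The first comparison asked whether the products of the clusters changed in the failing heart. None of the 5 members passed the test between MI and Sham, where 7.22% of the 263 tested miRNAs were called at an adjusted p under 0.05 (limma). MiR-23b-3p had the largest difference of the 5, 0.34 log2 units higher in MI (1.26-fold, SE 0.21, 95% interval -0.12 to 0.79, limma adjusted p = 0.311). MiR-24-3p and miR-27b-3p differed by 0.17 each (SE 0.18 and 0.22, limma adjusted p = 0.611 and 0.711), miR-23a-3p by 0.03 and miR-27a-3p by -0.08 (limma adjusted p = 0.954 and 0.853). An exact two-sided permutation test of miR-23b-3p gave p = 0.114, where 4 arrays against 4 cannot give less than 0.0286. At an unadjusted p under 0.05, 0 of 5 members were called, beside 29.3% of the tested miRNAs, and for 0 of 5 did the groups fail to overlap, beside 12.2%. The median difference of the members was 0.17, and that of all tested miRNAs was -0.04.

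The sign of 4 of the 5 differences, all but that of miR-27a-3p, changed when the slide was taken as a block. With the slide as a block, the differences between MI and Sham were -0.39 for miR-23a-3p, -0.57 for miR-23b-3p, -0.27 for both miR-27 members and -0.28 for miR-24-3p, with limma adjusted p of 0.625 to 0.873. Those estimates reach Sham from MI through YQFM replicate 1, the array on which all 5 members were highest. MI replicates 1 to 3, alone on their slide, do not enter them, so they rest on MI replicate 4 only. Whether the slide itself had an effect was not tested.

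The second comparison asked whether YQFM treatment moved the products in ligated hearts. No member passed the test between YQFM and MI, where 0% of the tested miRNAs were called at an adjusted p under 0.05 (limma) and 19% at an unadjusted p under 0.05, of which 0 were members. The groups overlapped for 5 of 5 members, and failed to overlap for 6.46% of the tested miRNAs. The differences were 0.12 for miR-23a-3p, 0.11 for miR-27a-3p, -0.06 for miR-24-3p, -0.14 for miR-23b-3p and -0.01 for miR-27b-3p, with limma adjusted p of 0.841 to 1.00. The 95% intervals were wide. That of miR-23b-3p ran from -0.60 to 0.32 and that of miR-23a-3p from -0.29 to 0.53 on the log2 scale. The only direct pair on 1 slide, YQFM replicate 1 against MI replicate 4, differed by 0.38 for miR-23a-3p, 0.55 for miR-23b-3p, 0.17 for miR-27a-3p, 0.25 for miR-27b-3p and 0.23 for miR-24-3p, with no replicate. YQFM replicate 1 was higher for 5 of 5 members in that pair.

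Against Sham, the treated hearts had means higher by 0.15 for miR-23a-3p, 0.19 for miR-23b-3p, 0.03 for miR-27a-3p, 0.16 for miR-27b-3p and 0.11 for miR-24-3p, with limma adjusted p of 0.796 to 0.975. 0 of 5 members were called, and 0% of the tested miRNAs. At an unadjusted p under 0.05 it was 0 of 5 beside 5.7%, and without overlap of the groups 0 of 5 beside 6.08%. YQFM replicate 1 decided the sign of all 5 values. Without it, which is also the comparison within the third slide, they were -0.01, -0.02, -0.10, -0.02 and -0.05 in the same order, with exact permutation p of 0.457 to 0.857 over 3 YQFM and 4 Sham arrays.

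**Figure D2:**
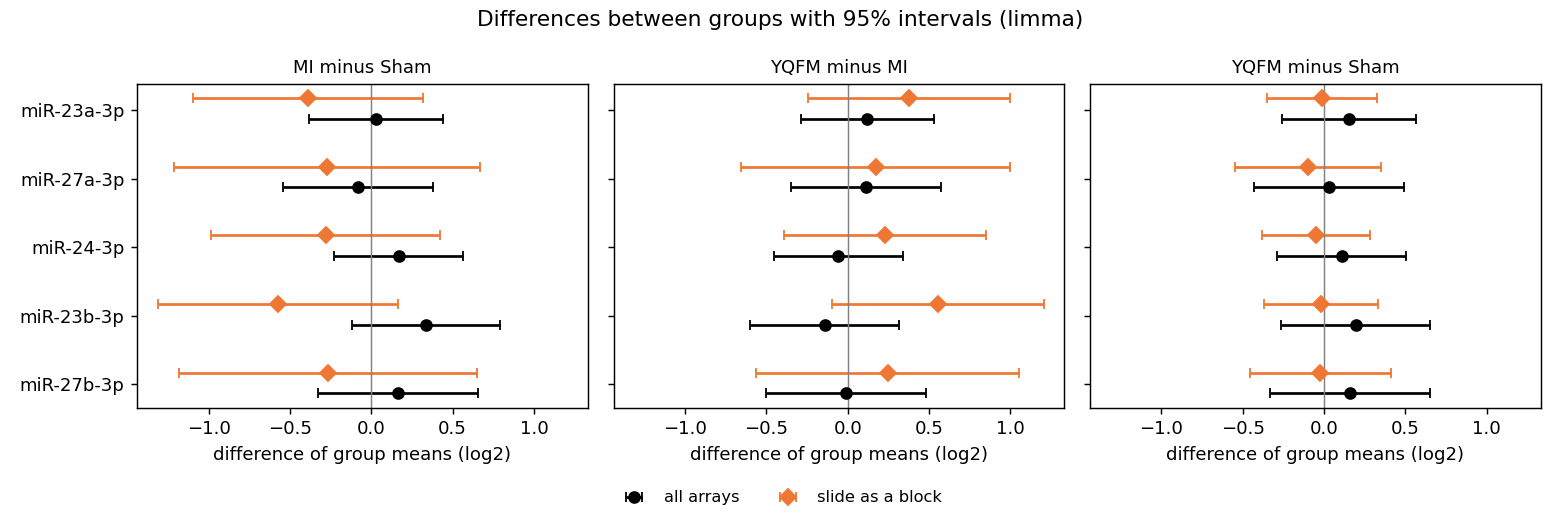
Difference of group means (log2) for the 5 products in the 3 comparisons, with 95% intervals from limma, over all arrays (circles) and with the slide as a block (diamonds). All 30 intervals include 0, and in MI minus Sham the circles run from -0.08 to 0.34 and the diamonds from -0.57 to -0.27.

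The paralogs were also set against each other within each array, where the scaling of the array cancels. Only the change of this log2 difference between groups is read, since the probes of the paralogs differ. The difference of miR-23a-3p minus miR-23b-3p was -0.17, -0.30, -0.27 and -0.17 in Sham, -0.58, -0.76, -0.55 and -0.24 in MI, and -0.42, -0.18, -0.21 and -0.27 in YQFM. MI replicates 1 to 3 lay below all other arrays, and MI replicate 4 lay within the Sham range. The mean in MI was lower than in Sham by 0.30 (-0.53 ± 0.22 against -0.23 ± 0.07, SD, n = 4, exact permutation p = 0.0857, 0.129 after adjustment over the 6 tests of pairs). From MI to YQFM it differed by 0.26 (exact permutation p = 0.0857, adjusted 0.129), and between YQFM and Sham by -0.04 (exact permutation p = 0.514, adjusted 0.514). With the slide as a block, YQFM minus MI was -0.18, which is only YQFM replicate 1 minus MI replicate 4.

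The difference of miR-27a-3p minus miR-27b-3p was 0.37, 0.37, 0.44 and 0.37 in Sham, 0.29, -0.07, 0.16 and 0.18 in MI, and 0.11, 0.34, 0.29 and 0.32 in YQFM. All MI and all YQFM arrays lay below all Sham arrays. The MI mean was lower than the Sham mean by 0.25 (0.14 ± 0.15 against 0.39 ± 0.04, SD, n = 4), and the YQFM mean of 0.26 ± 0.11 was lower by 0.13. Both contrasts gave the smallest p that this design allows, 0.0286 by the exact permutation test. After adjustment over the 6 tests it was 0.0857, so neither passed. A single contrast at that smallest p could not pass this adjustment alone, so the failure says little about the pair. YQFM minus MI was 0.12 (exact permutation p = 0.314, adjusted 0.377). With the slide as a block it was -0.073, again only YQFM replicate 1 minus MI replicate 4.

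In both families the product of the chromosome 17 cluster thus stood higher relative to its chromosome 19 paralog in MI than in Sham. The amounts did not pass the adjusted test, which no single contrast could pass alone. Both probe lengths gave the same picture, with -0.33 for the 17-base and -0.30 for the 18-base miR-23 probes, and -0.23 for both miR-27 probe pairs. The slide moved with this result. MiR-23a-3p minus miR-23b-3p ran from -0.76 to -0.55 on the first slide, was -0.42 and -0.24 on the second and ran from -0.30 to -0.17 on the third. With the slide as a block, the difference between MI and Sham was 0.19 for the miR-23 pair and -0.0025 for the miR-27 pair. MiR-27a-3p minus miR-27b-3p ran from -0.07 to 0.29 on the first slide and was 0.11 and 0.18 on the second. Within the third slide, chosen after seeing the data, it read 0.29 to 0.34 in 3 YQFM arrays and 0.37 to 0.44 in 4 Sham arrays. These did not overlap, whereas those of the miR-23 pair did. So few arrays cannot give an exact permutation p under 0.05.

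**Figure D3:**
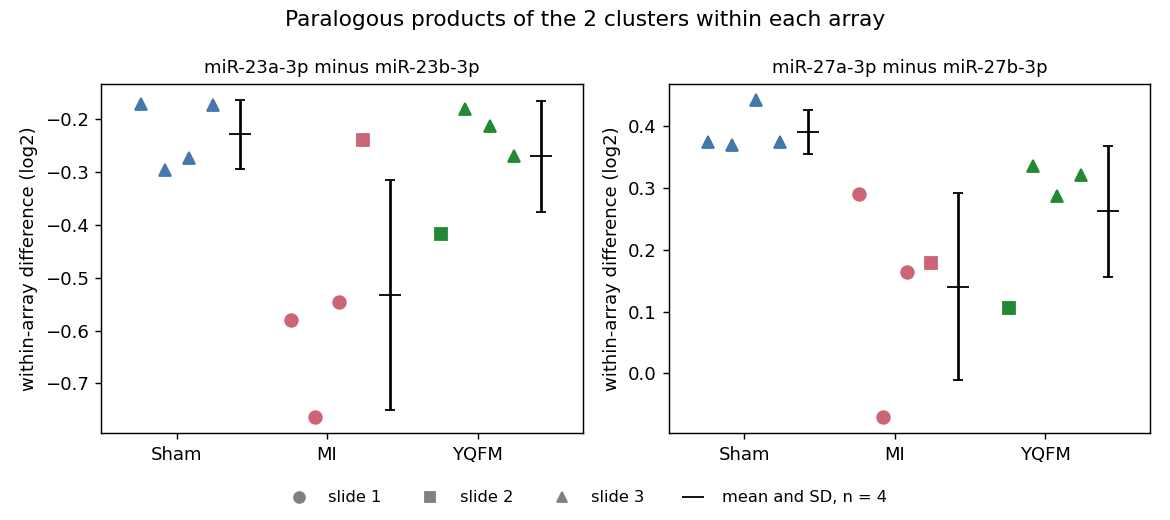
Within-array log2 difference of the miR-23 paralogs (left) and the miR-27 paralogs (right) on each array, by group, with marker shape for the slide and the mean and SD of each group. MI replicates 1 to 3, on the first slide, are lowest on the left, and on the right the 4 Sham arrays, at 0.37 to 0.44, lie above the other 8 arrays.

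The array also held 7 other products of these loci, the 5′ arms of the 6 precursors and miR-3074. MiR-23b-5p, miR-27a-5p, miR-27b-5p, miR-24-1-5p and miR-24-2-5p were detected on no array, and miR-23a-5p and miR-3074 entered the tests. MiR-3074 comes from a hairpin on the plus strand of chr17:1818648-1818764 that covers all 68 bases of Mir24-1 on the other strand. Its RefSeq hairpin, with the mature miRNA in capitals, is shown because it is the antisense of the miR-24 precursor.

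Mir3074: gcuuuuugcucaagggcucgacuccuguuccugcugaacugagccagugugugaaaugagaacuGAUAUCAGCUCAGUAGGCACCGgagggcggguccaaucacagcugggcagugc

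The log2 signal of miR-3074 was 4.40, 4.44, 4.65 and 4.53 in Sham, 4.01, 3.57, 3.29 and 4.26 in MI, and 4.13, 4.66, 4.46 and 4.32 in YQFM. It was detected on all Sham and YQFM arrays and on MI replicates 1 and 4 only, close to the floor of 2.38 set by the dimmest detected signals. All MI arrays lay below all Sham arrays, and YQFM replicates 2 to 4 lay above all MI arrays. The MI mean was lower by 0.72 (0.606-fold, SE 0.19, limma adjusted p = 0.0463, exact permutation p = 0.0286). MiR-3074 was thus called lower in MI under the main setting, where 7.22% of the 263 tested miRNAs were called and 12.2% had no overlap. By p it ranked 19 among the 19 called. MI replicates 1 to 3, on the first slide, differed from MI replicate 4 by -0.64 on average. YQFM minus MI was 0.61 (limma adjusted p = 0.107), and YQFM minus Sham was -0.11 (limma adjusted p = 0.852). With 1 array left out, YQFM minus MI ran from 0.45 without MI replicate 3 to 0.77 without MI replicate 4, where it was called (limma adjusted p = 0.0164). With the slide as a block it was -0.13, which is only YQFM replicate 1 minus MI replicate 4. The MI call was narrow. Of 24 alternative settings for this difference, 5 gave the same result, 18 a weaker one and 1 a reversed sign. It was lost when any 1 of the 4 Sham arrays or of MI replicates 1 to 3 was left out (limma adjusted p = 0.0648 to 0.148), and the difference of MI minus Sham was 0.11 with the slide as a block and -0.08 with the normexp background correction.

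MiR-23a-5p, the other arm of the miR-23a hairpin, read 4.23, 4.02, 4.39 and 4.31 in Sham, 4.32, 4.30, 4.41 and 4.24 in MI, and 4.50, 3.63, 4.17 and 3.91 in YQFM. The groups overlapped, and no comparison passed the test, with differences of 0.08, -0.27 and -0.19 for MI minus Sham, YQFM minus MI and YQFM minus Sham (limma adjusted p = 0.806, 0.446 and 0.689). With the slide as a block the differences were -0.59, 0.25 and -0.33, the 0.25 being only YQFM replicate 1 minus MI replicate 4. From the total gene signal of the scanner files they were -1.19, -0.051 and -1.24. None was called.

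**Figure D4:**
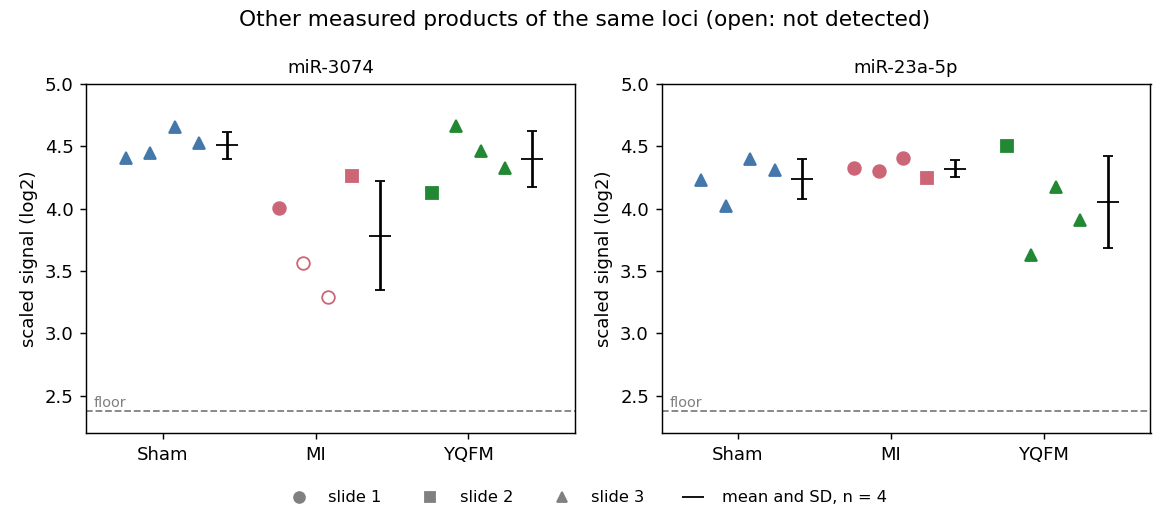
Scaled log2 signal of miR-3074 (left) and miR-23a-5p (right) on each array, by group, with marker shape for the slide, open markers where the miRNA was not detected, a dashed line at the floor of 2.38 and the mean and SD of each group. MI replicates 2 and 3 are the lowest and undetected arrays for miR-3074.

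Among tested miRNAs outside the clusters, those closest to each member were sought by the root mean square difference of log2 signals over the 12 arrays, each miRNA centred on its own mean. MiR-24-3p was closest to miR-103-3p (0.0493) and let-7f-5p (0.0992), and miR-27a-3p to miR-93-5p (0.0664) and miR-26a-5p (0.116). MiR-23a-3p was closest to miR-26a-5p (0.0795) and miR-26b-5p (0.0919), miR-23b-3p to let-7c-5p (0.0955) and let-7i-5p (0.0957), and miR-27b-3p to miR-103-3p (0.121) and miR-99b-5p (0.123). The median over all other tested miRNAs was 0.329 to 0.379. Among the members themselves, miR-27b-3p and miR-24-3p were closest at 0.0853, and miR-23b-3p and miR-27a-3p farthest apart at 0.249. The paralogs were not each other's nearest, at 0.184 for the miR-23 pair and 0.139 for the miR-27 pair. All these values share the same 12 arrays and their scaling, and they describe likeness only.

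The clusters were last placed beside other miRNAs of the processes they are known for. Of 15 angiogenesis miRNAs, 9 were tested, and between MI and Sham 0 rose and 1 fell, miR-296-5p at -0.80 (limma adjusted p = 0.0456), where 7.22% of all tested miRNAs were called. MiR-92a-3p, of the miR-17-92 cluster, differed by -0.24, the endothelial miR-126a-3p by 0.23 and miR-130a-3p by 0.28 (limma adjusted p = 0.153, 0.274 and 0.373). The other endothelial marker, miR-126a-5p, differed by -0.11 (limma adjusted p = 0.711). The list had a median difference of -0.06, beside -0.04 over all tested miRNAs. Of 20 hypertrophy miRNAs, 19 were matched on the array and 16 were tested, of which 0 rose and 1 fell, miR-22-3p, a miRNA abundant in muscle, at -0.44 (limma adjusted p = 0.0279), beside the same 7.22% over all tested miRNAs. MiR-21-5p, known in cardiac fibroblasts, differed by 0.79, miR-30a-5p by -0.24 and miR-29a-3p, which targets collagen mRNAs, by 0.28 (limma adjusted p = 0.194, 0.197 and 0.209), and the median of the list was 0.02. With the slide as a block, miR-296-5p differed by 0.21 and miR-22-3p by -0.15 (limma adjusted p = 0.873 and 0.803). With that block, miR-92a-3p differed by -0.48, miR-126a-3p by -0.04, miR-126a-5p by 0.10 and miR-130a-3p by 0.21. MiR-21-5p then differed by -0.41, miR-30a-5p by -0.09 and miR-29a-3p by -0.02. In the other 2 comparisons no miRNA of either list was called.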

How the data were processed

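The authors deposited the scanner output of 12 single-dye arrays, whose spot intensity had been background-subtracted by Agilent Feature Extraction 10.7.1.1, as the submitters' processing notes name it, and was not scaled between arrays. A table of processed intensity was deposited too, and in it 8423 of 9096 values equalled the scanner's total gene signal within 0.2%. The study names GeneSpring for its own analysis, and its normalization is not given in the sources used here. The probe annotation uses the build rn4.

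Control spots and outlier spots (902 to 1052 of 12128 per array) were left out. Intensity was averaged over spots, probes and miRNAs, scaled to the 75th percentile of each array (taken over 201 miRNAs that every array detected), floored and taken to log2. Of 758 miRNAs, 263 were detected on 2 or more arrays of some group and were tested over all 12 arrays with limma 3.58.1 (R 4.3.3), with Benjamini-Hochberg adjustment and a threshold of 0.05. A miRNA counted as detected where a probe had over 50% of its spots well above background. Differences between paralogs were tested with two-sided exact permutation tests (scipy 1.17.1). No saturated spot was found. Groups came from the sample titles. P-values measure the spread between arrays within groups, 1 per rat, and the 4 arrays per group limit the precision. In limma all groups share a single estimate of that spread per miRNA, although the members varied less in Sham. The fit was checked on simulated data.

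The members, the lists of miRNAs and the tests were chosen with earlier results of these data known. The miRNAs named are the members, the cell type markers, up to 4 of each list (called first, then by smallest p) and the 2 miRNAs most like each member. Sequences are from RefSeq (GRCr8), and the mature sequence of each member was matched. Other background corrections, scalings, probe summaries, filters, tests and blocks, and the removal of single arrays or of the 2 arrays with conflicting labels, were run as alternatives.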

Additional observations from a re-analysis of the deposited data

Results flagged for a closer look

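Of 27 sets of 4 arrays checked (each named miRNA of the loci and each paralog difference in each group), 3 held an array far from the others, where chance gives about 1 in 20. In the YQFM group, replicate 1 stood above the other arrays for miR-23a-3p (9.93, with a gap that was 0.861 of the range of the group) and for miR-23b-3p (10.34, 0.869 of the range). In the Sham group, replicate 3 stood above the others for miR-27a-3p minus miR-27b-3p (0.44, 0.924 of the range).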

How the results depend on the processing

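No member was called in any comparison under any of the 30 alternative settings, and 54 of 380 alternative values for the members reversed in sign. With the slide as a block, MI minus Sham was -0.39 for miR-23a-3p, -0.57 for miR-23b-3p, -0.27 for miR-27b-3p, -0.28 for miR-24-3p, 0.11 for miR-3074 and -0.59 for miR-23a-5p. YQFM minus MI was then 0.55 for miR-23b-3p, 0.25 for miR-27b-3p, 0.23 for miR-24-3p, -0.13 for miR-3074 and 0.25 for miR-23a-5p. Every YQFM minus MI value with this block, also for the pairs, is YQFM replicate 1 minus MI replicate 4 only. The source name of the latter reads Sham. YQFM minus Sham was -0.012, -0.020, -0.098, -0.022 and -0.050 for miR-23a-3p, miR-23b-3p, miR-27a-3p, miR-27b-3p and miR-24-3p, also on the third slide alone, which was chosen after seeing the data. The slide block, likewise added for the pairs, gave 0.19, -0.18 and 0.0077 for the miR-23 pair (MI minus Sham, YQFM minus MI, YQFM minus Sham), and -0.0025 and -0.073 for the miR-27 pair in the first 2 comparisons.

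Other settings also turned signs. For MI minus Sham, miR-27a-3p was 0.098 from the total gene signal, 0.0098 with the percentile over all miRNAs and 0.16 with the brightest probe, miR-23a-3p was -0.069 after quantile normalization and -0.023 without the 2 arrays with conflicting labels, and miR-23a-5p was -1.19 from the total gene signal (SE 1.63). For YQFM minus MI, miR-27b-3p was 0.016 with the percentile over all miRNAs, 0.029 after quantile normalization, 0.12 with no scaling and 0.089 without the conflicting arrays, miR-24-3p was 0.067 and 0.0060 under the last 2, and with the brightest probe miR-23a-3p was -0.031 and miR-27a-3p -0.021. For YQFM minus Sham, miR-24-3p was -0.033 after quantile normalization and miR-23a-5p was 0.025 with normexp. MiR-3074 was there 0.00092 with normexp, 0.0084 from the total gene signal, 0.0043 with the percentile over all miRNAs, 0.044 with no scaling and 0.0027 with the brightest probe. These settings moved the median of all tested miRNAs by at most 0.16.

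With 1 array left out in turn, MI minus Sham ran from -0.049 to 0.17 for miR-23a-3p and from -0.20 to 0.12 for miR-27a-3p. YQFM minus MI ran from -0.044 to 0.20 for miR-23a-3p, -0.087 to 0.23 for miR-27a-3p, -0.22 to 0.089 for miR-27b-3p and -0.22 to 0.019 for miR-24-3p. YQFM minus Sham ran from -0.012 to 0.22, -0.020 to 0.29, -0.098 to 0.091, -0.022 to 0.24 and -0.050 to 0.19 for miR-23a-3p, miR-23b-3p, miR-27a-3p, miR-27b-3p and miR-24-3p, and from -0.071 to 0.0077 for the miR-23 pair.

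Of all tested miRNAs, 19 were called between MI and Sham, and this count was 5 with normexp, 0 from the total gene signal, 3 with the percentile over all miRNAs, 2 after quantile normalization, 0 with no scaling, 0 with the brightest probe, 7 over miRNAs detected on all arrays, 7 with no filter, 58 without the conflicting arrays, 0 with the slide as a block, 6 by the methods' t-test with adjusted p-values and 59 unadjusted. It was 4 to 62 with 1 array left out, being 62 without MI replicate 4, 4 without MI replicate 2 or 3, 7 without Sham replicate 1 or 4, 11 without MI replicate 1 and 12 without Sham replicate 2. Between YQFM and MI it was 0, and 1 with normexp, 2 after quantile normalization, 28 without the conflicting arrays, 45 by the methods' t-test unadjusted, and 0 to 28 with 1 array left out, being 28 without MI replicate 4 and 23 without YQFM replicate 1. Between YQFM and Sham it was 0, and 23 by the methods' t-test unadjusted. The cause was not tested.

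Replicate numbers did not pair the arrays. Same-numbered arrays correlated at -0.636 to 0.323 in their deviations, over 0.1 in 4 of 12 pairs, and 4 arrays correlated best with their own number. The replicate block gave 10 calls between MI and Sham, left the differences of the members as they were and called none of them.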
